A study of Mus musculus with 9 samples.

Results

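The genes described here encode the proteins of the cytoplasmic ribosome, in ovaries of mouse embryos cultured with BMP2 or estradiol. Members were taken by symbol alone, as every gene named Rpl or Rps with a number (and a final a, x or y where there is one), Rplp0 to Rplp2, or Rpsa. This gave 76 of the 23420 genes counted in each library, 46 of the large and 30 of the small ribosomal subunit, and all 76 were among the 16360 genes with enough counts to test. Members were thus chosen by name, which uses no measured value, but the group was selected on the fold changes seen earlier in these 9 libraries, so its counts of changed genes are a description and are read as nothing more. Rps3a1, the fusion gene Fau, and paralogs such as Rpl22l1 carry other names, and they are given apart as a list of their own.

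Ovaries were taken from wild-type CD1 mouse embryos on embryonic day 16 and kept for 24 hours on a porous insert in phenol red-free medium. That medium contained 0.1 μg/ml insulin, transferrin, selenium and linoleic acid in all 3 groups. The groups were vehicle, recombinant human BMP2 at 50 ng/ml (a bone morphogenetic protein, a ligand of the TGF-beta family), and estradiol-17β, called E2, at 3.67 μM, with 3 libraries each. Title prefixes placed the libraries in their groups, and the labels say nothing of the vehicle's composition, the number of ovaries per library or any pooling. No label states whether the 3 libraries of each condition were cultured apart, so each p-value reflects library-to-library spread alone, which may be technical.

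A ribosome is made of a few RNA molecules and a large set of proteins, most of them present as a single copy, and the genes of both subunits are transcribed at high levels in growing cells. Their mRNAs begin with a C and a run of pyrimidines, the 5′ terminal oligopyrimidine (TOP) sequence, through which the protein LARP1 and the kinase complex mTORC1 regulate their translation and stability. The fetal ovary at this age holds oocytes in meiotic prophase, the pregranulosa cells around them, stroma, vessels and a surface epithelium, all of which make ribosomes.

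The start sites of 6 members are shown because a run of pyrimidines there is the feature through which translation of this family's mRNAs is known to be controlled. They are 6 members of high mean level among those whose RefSeq start (GRCm38.p6) is a C that opens a run of at least 5 pyrimidines. Each sequence runs from 60 bases before the start to 20 bases from it, and capitals mark the run of pyrimidines from the first transcribed base. Rps6 lies at chr4:86857348-86857427, Rps15a at chr7:118116128-118116207, Rps18 at chr17:33955646-33955725 and Rpl15 at chr14:18270967-18271046, all on the minus strand. Rpl14 lies at chr9:120571457-120571536 and Rpl35a at chr16:33056422-33056501, both on the plus strand.
Rps6: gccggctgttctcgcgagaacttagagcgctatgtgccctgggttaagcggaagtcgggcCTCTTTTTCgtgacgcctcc
Rps15a: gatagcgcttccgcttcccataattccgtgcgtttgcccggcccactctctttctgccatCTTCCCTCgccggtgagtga
Rps18: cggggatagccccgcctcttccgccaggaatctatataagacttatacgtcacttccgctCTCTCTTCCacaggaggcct
Rpl14: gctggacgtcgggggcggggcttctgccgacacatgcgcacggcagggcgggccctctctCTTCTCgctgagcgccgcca
Rpl15: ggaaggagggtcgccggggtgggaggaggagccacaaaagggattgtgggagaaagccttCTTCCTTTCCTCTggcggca
Rpl35a: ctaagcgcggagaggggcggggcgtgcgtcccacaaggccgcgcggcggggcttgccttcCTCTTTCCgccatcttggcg
RefSeq promoters were matched by symbol for 56 of the 76 members, with 66 start sites. A run of this kind opened 13 of those 66 starts (19.7%), against 823 of all 32851 starts in the table (2.51%). The letters CCGGAA, or TTCCGG on the other strand, the core bound by ETS and GABP factors, were found in the 300 bases around 32 member starts (48.5%) and around 4894 of all starts (14.9%). A match is a description of the annotated sequence, and an annotated start can miss the base used in the ovary.

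Each library held between 30418674 and 34320077 counts assigned to genes, and a further 38.2% to 39.7% of the entries in each file belonged to no gene. Markers of the ovary were present in every library: the 4 germ cell genes (Ddx4, Dazl, Sycp3, Mael) summed to 993 to 1070 CPM (counts scaled to the depth of the library) and the 4 pregranulosa genes (Foxl2, Fst, Wnt4, Kitl) to 1069 to 1293 CPM. The 3 genes that mark the Sertoli cells of the testis (Sox9, Dmrt1, Cyp26b1) summed to 9.13 to 13.6 CPM. Counts of any pair of libraries from 1 group differed beyond sampling noise, by a chi-square of 1.51 to 2.39 per gene.

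Ribosomal protein genes took a smaller share of the counts in treated than in vehicle ovaries, and the vehicle libraries did not overlap the treated ones. The share of gene counts was 6.83%, 6.88% and 6.68% in the vehicle libraries. It was 6.22%, 6.25% and 6.26% in the BMP2 libraries, and 6.32%, 6.24% and 6.25% in the E2 libraries. Vehicle replicate 3 was the lowest of its group and still above every treated library, while the treated groups overlapped. The group means were 6.80% ± 0.102, 6.24% ± 0.0196 and 6.27% ± 0.0417 (SD, n = 3 each). Both subunits were lower in like measure, the large subunit going from 3.99% to 3.68% with BMP2 and 3.69% with E2, and the small subunit from 2.81% to 2.57% and 2.58%. In bulk RNA a lower share from fewer cells of a type and one from less of these RNAs per cell cannot be told apart.

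**Figure D1:**
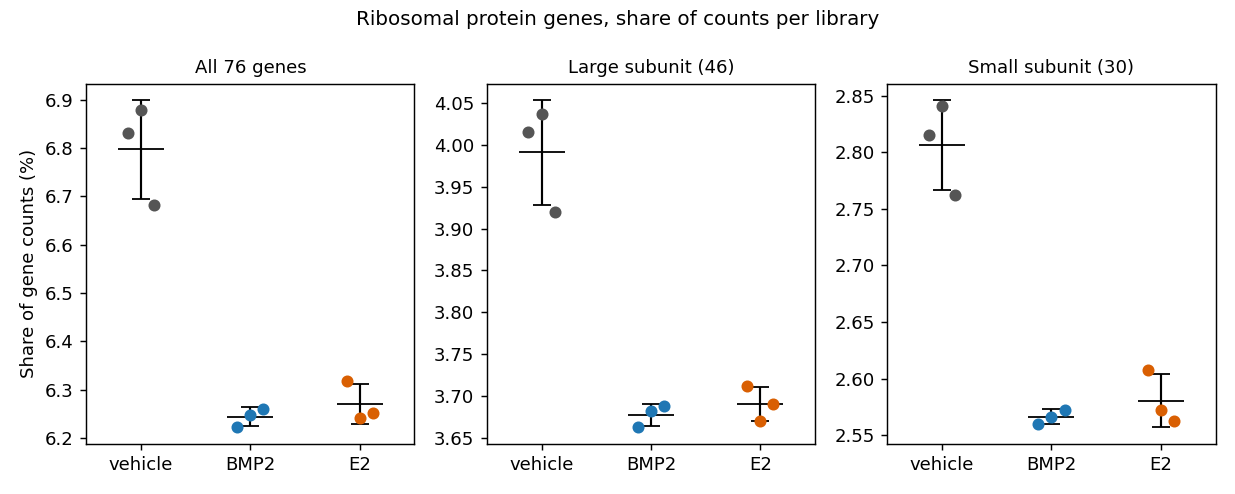
Share of gene counts in the 76 ribosomal protein genes, in percent, for each of the 9 libraries (points), with the group mean (long line) and SD (bars), for both subunits together and apart; the vertical axes do not start at 0. The vehicle points (6.68% to 6.88%) lie above all treated points (6.22% to 6.32%), and BMP2 and E2 points overlap.

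The members differed widely in level, and levels are given first per kilobase of the main GENCODE transcript. Rplp1 (acidic stalk protein P1), Rps24, Rpl23a, Rps4x and Rps14 led, with 2181, 2032, 2023, 1814 and 1787 CPM per kilobase over the 9 libraries. Rpl22 (203 CPM per kilobase) and Rplp2 (226) were low on this scale. Rps20 and Rps15a were low there too, but on annotated transcripts of 3706 and 5179 bases, which are long for this family and make their values per kilobase uncertain. The members with most counts, a scale that also rises with transcript length, were Rpsa, Rpl4, Rpl7, Rps4x and Rpl3, at means of 2141, 1890.0, 1871, 1768 and 1754 CPM. A group of 4 members stood far below the rest: Rpl30, Rpl34, Rps27 and Rpl26 had 9.94, 6.35, 5.96 and 3.26 CPM per kilobase (means of 5.67, 3.05, 2.05 and 1.72 CPM), while the lowest of the other 72 was Rps15a, at 191 CPM per kilobase.

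With BMP2, 65 of the 76 ribosomal protein genes (85.5%) fell and none rose, by the quasi-likelihood test of edgeR with Benjamini-Hochberg adjustment over all genes tested (adjusted p under 0.05). Over all 16360 genes, 6.85% were called lower and 6.84% higher. Of the 869 other genes with a mean of at least 200 CPM, 142 (16.3%) were called lower and 153 higher. At an unadjusted p under 0.05, edgeR put 70 members lower and 0 higher, and DESeq2 called 65 lower and 0 higher. The members' median log2 fold change was -0.14, a change of -9.09% in level, against -0.0015 over all genes. The changes were small and all negative, from -0.25 to -0.012 among the 72 members of higher level. For 67 members (88.2%) every BMP2 library lay below every vehicle library, as it did for 14% of all genes. The large and the small subunit had the same median of -0.14, with 39 of 46 and 26 of 30 genes called.

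**Figure D2:**
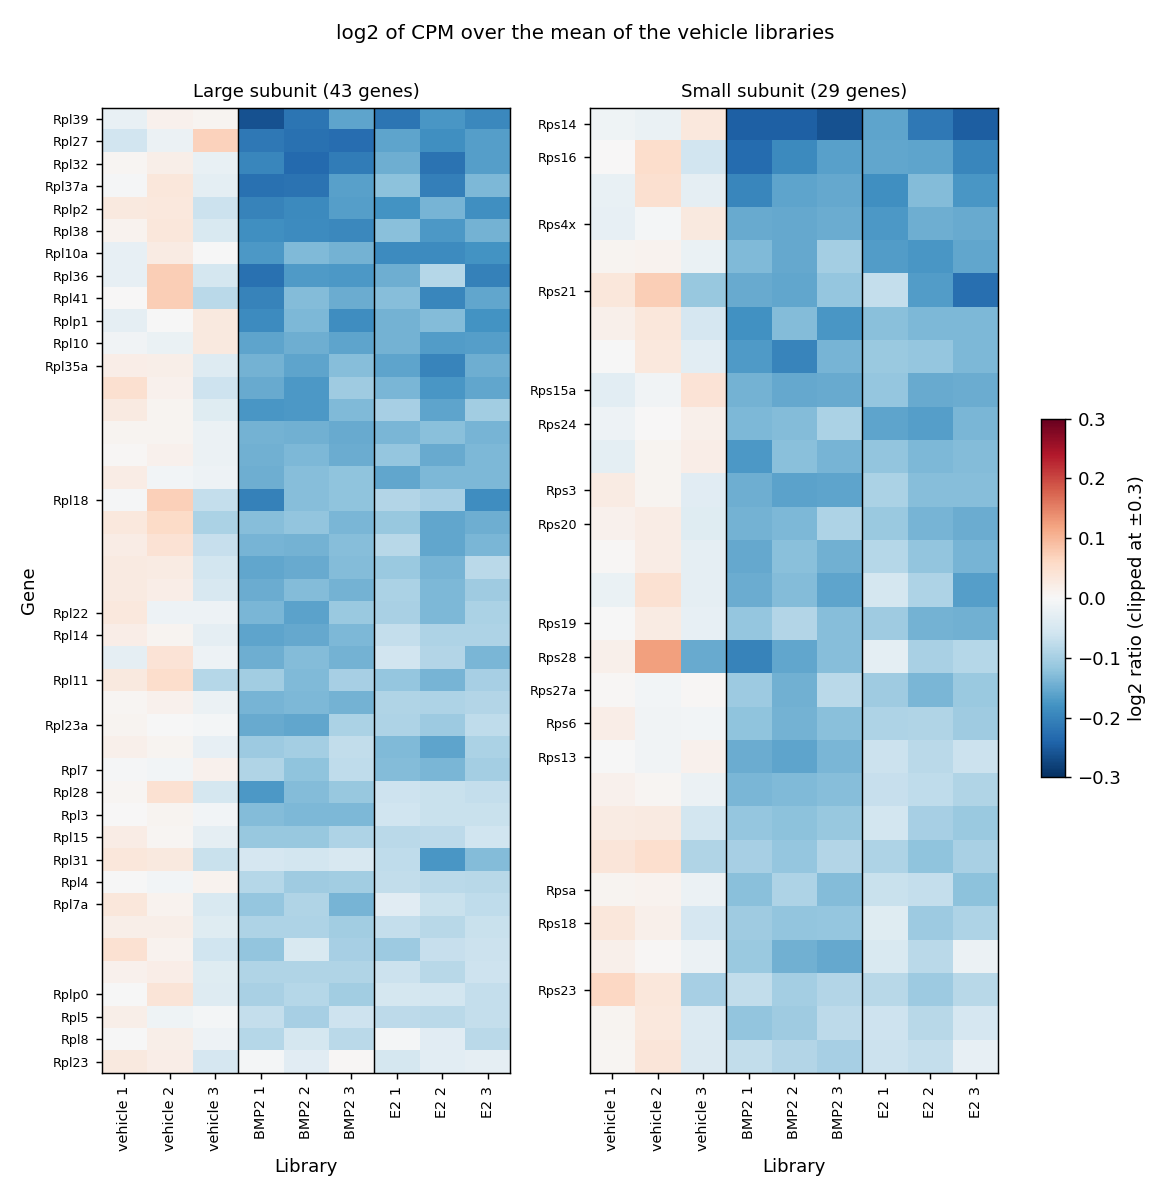
log2 of the CPM of each library over the mean of the 3 vehicle libraries, for the 72 ribosomal protein genes with a mean of at least 6 CPM, in rows by subunit and sorted by change, with the genes described in the text labelled; blue is below and red above the vehicle mean. BMP2 and E2 columns are blue in nearly every row, Rpl23 is near white under BMP2, and Rps28, Rps21 and Rps23 vary within the vehicle group.

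Among called members, the deepest fall under both treatments was that of Rps14, a protein of the small subunit's platform whose partial loss in humans causes an anaemia. Rps14 had 1172, 1165 and 1208 CPM in the vehicle libraries, 997, 997 and 986 CPM in the BMP2 libraries and 1059, 1019 and 995 CPM in the E2 libraries. No treated library reached the lowest vehicle library. The log2 fold change was -0.25 (SE 0.017, adjusted p = 1.49e-26) with BMP2 and -0.21 (SE 0.017, adjusted p = 1.34e-21) with E2. Rpl27, of the large subunit (chr11:101442298-101445529), had 395, 406 and 431 CPM in the vehicle libraries, 354, 352 and 351 CPM in the BMP2 libraries and 368, 362 and 366 CPM in the E2 libraries. Its change was -0.22 (SE 0.020, adjusted p = 2.79e-17) with BMP2 and -0.17 (SE 0.020, adjusted p = 2.89e-12) with E2. Rpl39 (chrX:37082520-37085402) encodes one of the shortest ribosomal proteins, which lines the tunnel through which the new peptide leaves. It had 567, 581 and 579.5 CPM in the vehicle libraries, 480.2, 494 and 516 CPM in the BMP2 libraries and 495, 510.3 and 503 CPM in the E2 libraries. These values give -0.21 (SE 0.019, adjusted p = 2.71e-18) with BMP2 and -0.20 (SE 0.019, adjusted p = 4.41e-17) with E2. For Rpl27 and Rpl39, as for Rps14, the vehicle libraries stood above all others.

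Rpl32, Rpl37a, Rps16, Rpl38 and Rpl36 complete the 8 called members with the deepest falls under BMP2, at log2 fold changes of -0.21, -0.20, -0.19, -0.19 and -0.19. Rpl32 (chr6:115805505-115808747) had 911, 919 and 893 CPM in the vehicle libraries, 793, 773 and 785 CPM in the BMP2 libraries and 819.9, 779 and 809 CPM in the E2 libraries. The groups were again apart, with no treated library above 819.9 CPM and no vehicle library below 893 CPM. Rpl38 is known in mice for a skeletal phenotype when mutated, through selective translation of Hox mRNAs. It had 247, 251 and 237 CPM in the vehicle libraries, 216, 215 and 214 CPM in the BMP2 libraries and 225, 217 and 222 CPM in the E2 libraries. Both treated groups lay below vehicle, at -0.19 (SE 0.021, adjusted p = 8.65e-13) and -0.15 (SE 0.022, adjusted p = 3.53e-09). With E2 the 8 deepest called falls were those of Rps14, Rpl39, Rpl10a (-0.19), Rpl32 (-0.18), Rps16 (-0.17), Rpl27, Rpl35a (-0.17) and Rplp2 (-0.17).

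With E2, 66 of the 76 genes (86.8%) fell and none rose, where 16.5% of all genes were called lower and 15.8% higher. Of the 869 other genes with a mean of at least 200 CPM, 199 (22.9%) were called lower and 325 higher. At an unadjusted p under 0.05, 71 members were lower and 0 higher by edgeR, and DESeq2 called 66 lower and 0 higher. The members' median was -0.12, a change of -7.87% in level, against -0.0026 over all genes. For 63 members (82.9%) the E2 libraries all lay below the vehicle libraries, as for 20.9% of all genes. Medians by subunit were -0.12 for both, with 40 of 46 large and 26 of 30 small subunit genes called. Both comparisons use the same 3 vehicle libraries, so the likeness of their counts is not independent evidence for either.

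**Figure D3:**
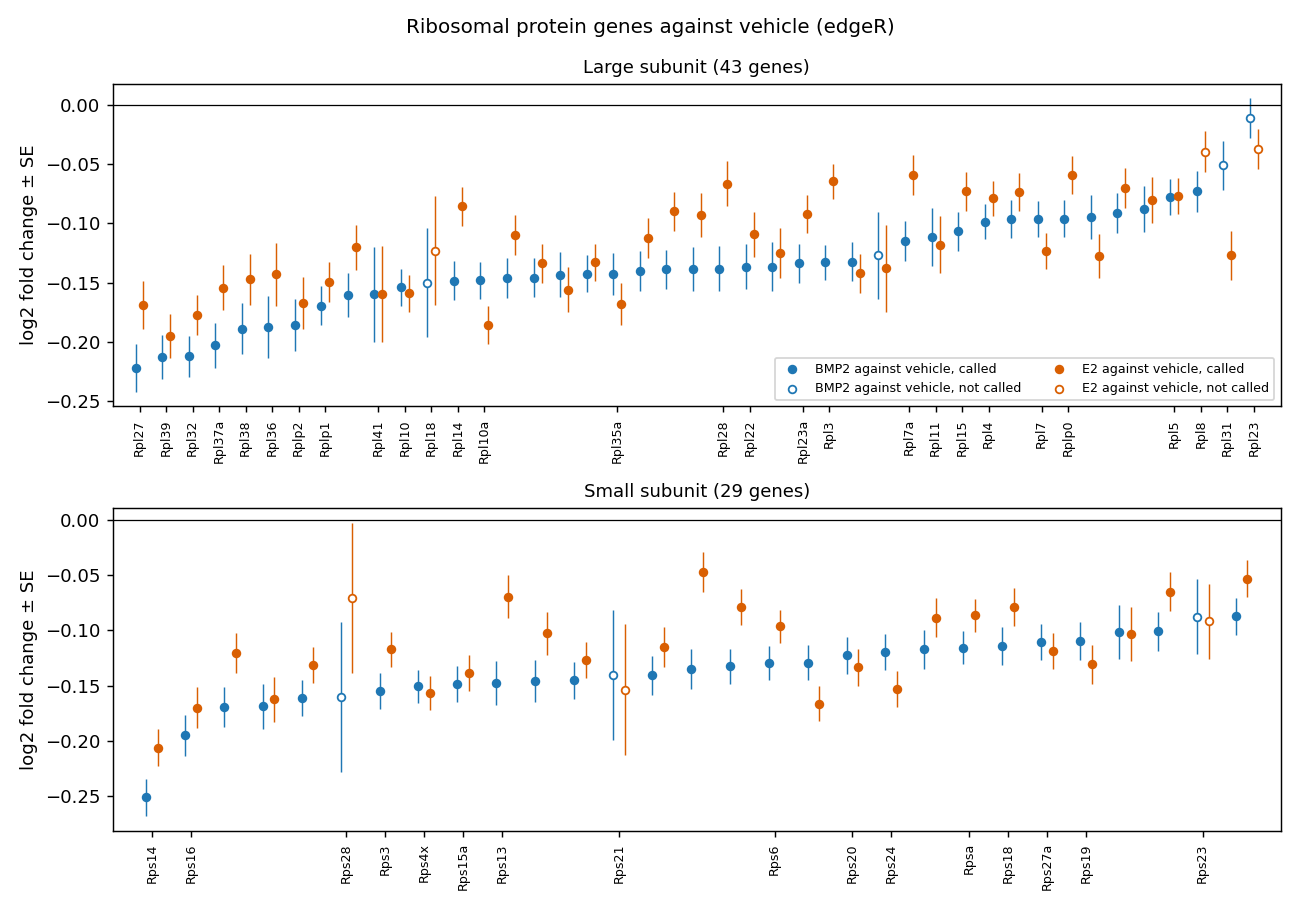
edgeR log2 fold change ± SE against vehicle for the 72 ribosomal protein genes with a mean of at least 6 CPM, large subunit above and small subunit below, sorted by the BMP2 value, with the genes described in the text labelled; filled points passed the test. All points lie below 0 in both comparisons, from -0.25 for Rps14 to -0.012 for Rpl23 with BMP2.

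The stalk of the large subunit, which recruits the elongation factors, is made of Rplp0 and the acidic pair Rplp1 and Rplp2. Rplp1 had 1148, 1168 and 1193 CPM in the vehicle libraries, 1027, 1066 and 1028 CPM in the BMP2 libraries and 1061, 1069 and 1034 CPM in the E2 libraries. Rplp2 had 240.4, 241 and 225 CPM in the vehicle libraries, 205, 206 and 210.0 CPM in the BMP2 libraries and 208, 214 and 207 CPM in the E2 libraries. With BMP2, Rplp1 changed by -0.17 (SE 0.017, adjusted p = 4.64e-16) and Rplp2 by -0.19 (SE 0.022, adjusted p = 6.22e-12). The base of the stalk, Rplp0, changed by -0.096 (SE 0.016, adjusted p = 5.57e-07), a smaller value than that of the acidic pair. With E2 the changes were -0.15, -0.17 and -0.059, and the last was not called without vehicle replicate 2. The differences between these genes were not tested.

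Rpl5 and Rpl11, which bind and restrain the p53 ligase MDM2 when ribosome assembly fails, were lower in treated ovaries as well. Rpl5 had 1531, 1499 and 1507 CPM in the vehicle libraries, 1440.5, 1412 and 1448 CPM in the BMP2 libraries and 1434, 1429.8 and 1438 CPM in the E2 libraries. Rpl11 had 879, 894 and 812 CPM in the vehicle libraries, 801, 786 and 804 CPM in the BMP2 libraries and 795, 782 and 803 CPM in the E2 libraries. Both genes kept vehicle apart from the treated libraries, though vehicle replicate 3 of Rpl11 lay close to them. Rpl5 changed by -0.078 (SE 0.015, adjusted p = 4.42e-05) with BMP2 and -0.077 (SE 0.015, adjusted p = 1.46e-05) with E2. Rpl11 changed by -0.11 (SE 0.024, adjusted p = 0.00248) and -0.12 (SE 0.024, adjusted p = 5.01e-04). Rps6, the target of the S6 kinases downstream of mTORC1, is the member whose start site opens the sequences above. Rps6 had 1622, 1588 and 1590.5 CPM in the vehicle libraries, 1473, 1449.5 and 1466 CPM in the BMP2 libraries and 1502, 1503 and 1485 CPM in the E2 libraries. All 6 treated libraries were below vehicle, at -0.13 (SE 0.015, adjusted p = 4.83e-12) and -0.097 (SE 0.015, adjusted p = 4.41e-08).

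Rps3 and Rps19 are proteins of the small subunit. Rps3, at the mRNA entry channel, had 1277, 1264 and 1228 CPM in the vehicle libraries, 1136, 1124 and 1126 CPM in the BMP2 libraries and 1176, 1149.5 and 1150.3 CPM in the E2 libraries. Its change was -0.15 (SE 0.016, adjusted p = 9.19e-15) with BMP2 and -0.12 (SE 0.016, adjusted p = 3.30e-10) with E2. Rps19, the gene most often mutated in Diamond-Blackfan anaemia, had 673, 685 and 661 CPM in the vehicle libraries, 621, 634 and 616 CPM in the BMP2 libraries and 625, 609.8 and 609 CPM in the E2 libraries. Vehicle libraries were again highest, with changes of -0.11 and -0.13. Rps4x, on the X chromosome, changed by -0.15 and -0.16. Rpsa, also known as the laminin receptor and the member with most counts, changed by -0.12 and -0.087. Rps27a, made as a fusion with ubiquitin, changed by -0.11 and -0.12. In the large subunit Rpl10, which joins late and completes the peptidyl transferase region, changed by -0.15 and -0.16, and Rpl22 by -0.14 and -0.11. All of these were called in both comparisons.

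The test was not passed by 11 members with BMP2 and by 10 with E2. Rpl23, another large subunit protein known to bind MDM2, moved least with BMP2. It had 973, 967 and 920.4 CPM in the vehicle libraries, 950.1, 932 and 956 CPM in the BMP2 libraries and 919.8, 933 and 935 CPM in the E2 libraries. BMP2 and vehicle libraries overlapped, at -0.012 (SE 0.017, adjusted p = 0.732), and E2 gave -0.037 (SE 0.017, adjusted p = 0.0817). Rpl31, beside the exit of the peptide tunnel, had -0.051 (SE 0.021, adjusted p = 0.0914) with BMP2 and fell with E2, at -0.13 (SE 0.021, adjusted p = 1.60e-06). Rpl31 had 682, 679 and 635 CPM in the vehicle libraries, 643, 640.3 and 643 CPM in the BMP2 libraries and 631, 589.5 and 608 CPM in the E2 libraries. Its vehicle replicate 3 lay below the BMP2 libraries and above all E2 libraries. Rpl8 fell with BMP2 (-0.073, SE 0.017, adjusted p = 9.38e-04) and missed the threshold with E2 (-0.040, SE 0.017, adjusted p = 0.0694).

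A further 4 members paired changes of the usual size with a wide spread, and missed the threshold with BMP2. Rps28, Rps21, Rps23 and Rpl18 had BMP2 values of -0.16, -0.14, -0.088 and -0.15, with standard errors of 0.068, 0.059, 0.034 and 0.046. That of Rps14 was 0.017. Rpl18 was called by DESeq2 (adjusted p = 0.0205). Rps28 had 356, 383 and 317 CPM in the vehicle libraries, 307, 316 and 323 CPM in the BMP2 libraries and 345, 329 and 332 CPM in the E2 libraries. Vehicle replicate 3 was the lowest vehicle library for each of these 4 genes. When it was left out, all 4 and Rpl31 were called lower with BMP2, and 71 members were called in all. Rpl41, the shortest ribosomal protein, was called with BMP2 (-0.16, SE 0.040, adjusted p = 0.0397) and lost that call without vehicle replicate 1, BMP2 replicate 2, BMP2 replicate 3 or E2 replicate 3.

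Set directly against each other, BMP2 and E2 ovaries differed little in these genes. The median log2 fold change, BMP2 over E2, was -0.026, and 13 members (17.1%) were called lower with BMP2 and 1 (1.32%) higher, where 14% of all genes were called lower and 14.1% higher. Among the 869 other genes with a mean of at least 200 CPM, 277 (31.9%) were called lower and 178 higher. The members' share of lower calls was thus near that of all genes and below that of those abundant genes. Their share of higher calls was below that of all genes. Scaling by total counts in place of TMM gave 7 lower and 5 higher, with a median of -0.0152 against 0.0126 over all genes. The count fell to 8 without BMP2 replicate 1 or without E2 replicate 1 and rose to 22 without vehicle replicate 3, a library of neither group. Over all genes those 3 fits called 3938, 4062 and 4848, against 4607 with every library.

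Among the 13 lower members, Rps13 (-0.078, SE 0.020, adjusted p = 8.80e-04), Rpl28 (-0.071, SE 0.019, adjusted p = 0.00179) and Rpl3 (-0.068, SE 0.015, adjusted p = 8.34e-05) had their highest mean in vehicle, then in E2, and their lowest in BMP2. Rpl3, at the peptidyl transferase centre, is also among the members with most counts. It had 1835, 1845 and 1823 CPM in the vehicle libraries, 1677, 1671 and 1671 CPM in the BMP2 libraries and 1759, 1753 and 1750.3 CPM in the E2 libraries. The 3 groups of Rpl3 were fully apart, with E2 in the middle. Rpl31 was the 1 member higher with BMP2, at 0.076 (SE 0.021, adjusted p = 0.00349), and it was not called without E2 replicate 2, by DESeq2 or under a length and GC offset. Rpl28 was not called without BMP2 replicate 1.

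Most members have short transcripts, and short transcripts of other genes were lower in treated ovaries too. Of the 76 members, 53 had a main transcript under 1 kb, 19 of 1 to 2 kb, 3 of 2 to 4 kb and 1 above that. Among other genes under 1 kb (1300 tested), the median log2 change was -0.052 with BMP2 and -0.054 with E2, and over the 4277 above 4 kb it was 0.012 and 0.022. Members under 1 kb had medians of -0.14 and -0.12. The members of 1 to 2 kb had -0.12 and -0.086, against -0.015 and -0.024 for other genes of that length. Rps15a and Rps20, on the longest transcripts, changed by -0.15 and -0.12 with BMP2 and by -0.14 and -0.13 with E2. Of other genes both under 1 kb and of at least 200 CPM there were 25, with medians of -0.083 and -0.056. Of those 25, 11 (44%) were called lower in each comparison, and 2 with BMP2 and 4 with E2 were called higher.

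**Figure D4:**
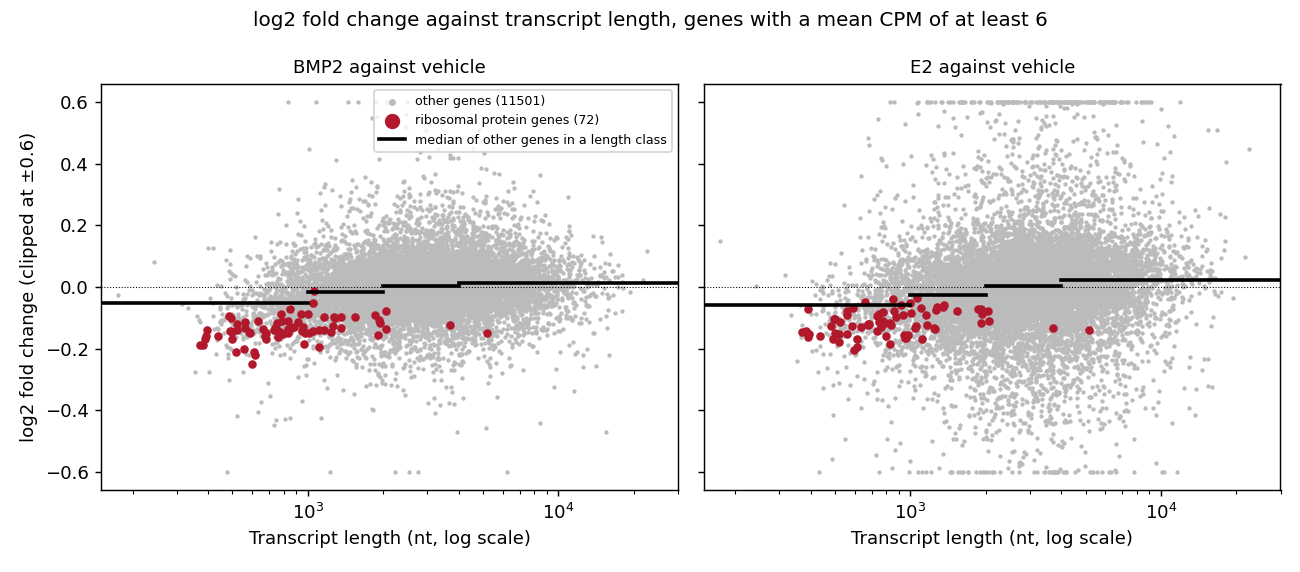
edgeR log2 fold change against the length of the main transcript (log axis, nucleotides) for genes with a mean of at least 6 CPM: 72 ribosomal protein genes in red, 11501 others in grey, and the median of the others in 4 length classes as black bars. The grey medians rise from -0.053 under 1 kb to 0.012 over 4 kb with BMP2 and from -0.059 to 0.021 with E2, and nearly all red points lie below the bar of their class.

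An offset that removes the trend of counts with transcript length and GC content in each library made the change smaller. With it, the members' median was -0.087 with BMP2 and -0.077 with E2. The calls were 59 lower and none higher with BMP2, where 7.78% of all genes were called lower and 7.45% higher. With E2 they were 49 lower and 1 higher, where 17.3% of all genes were called lower and 14.8% higher, and the 1 was Rpl8 (0.045, adjusted p = 0.00529). Rps14 had -0.19, adjusted p = 3.24e-06, with BMP2. Of the calls given above, those of Rpl11, Rpl41 and Rpl8 with BMP2 and of Rps19 and Rpl31 with E2 were lost under this offset. Rpl8 then had -0.026, adjusted p = 0.208, and Rpl41 -0.078, adjusted p = 0.116, with BMP2. With the trend fitted to all genes but the members, an alternative chosen after seeing the data, the medians were -0.092 and -0.078.

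Near-identical copies limit what can be counted for this family. Of the 76 members, 75 share at least 1 word of 50 bases with an annotated pseudogene in GENCODE, and Rpl7a with 120 of them. The median member shares 56.0% of the 50-base words of its transcript with transcripts of other genes, on either strand. That share also includes genes that overlap a member at its own locus, so it is not a measure of copies alone. For Rpl35, 66.2% of exon bases overlap exons of genes on the other strand. Between 23.9% and 24.4% of the entries in each file were reads that did not align uniquely and were given to no gene. Rps27 shared 98.6% of its words, with 2.66, 2.11 and 1.92 CPM in the vehicle libraries, 1.64, 1.82 and 1.68 CPM in the BMP2 libraries and 2.04, 2.76 and 1.86 CPM in the E2 libraries. Rpl34 had 893 counts over all libraries, while its processed pseudogene Rpl34-ps1 had 23354. Rpl34 shared 50.6% of its words, Rpl26 71.3% and Rpl30 76.4%. Members with many counts could share more, as Rpl5 did (93.8%, mean of 1460 CPM) and Rpl10 (92.1%, 1322 CPM). The cause of the low levels of these 4 genes was not tested. Their levels are uncertain, and none was called in any comparison. Members that share under 50% of their words (30 genes) had medians of -0.14 and -0.12, and those that share more (42) had -0.13 and -0.12, with the 4 low members left out.

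Members with and without a pyrimidine start had close medians. Of the matched members with a mean of at least 6 CPM, the 12 with a pyrimidine start had medians of -0.14 with BMP2 and -0.13 with E2. The 41 without one had -0.14 and -0.12. Those medians describe annotated starts, and no test was run on them.

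Relatives of the ribosomal proteins under other names moved the same way in part. Of 10 paralogs and fusion genes found, 4 (40%) were lower with BMP2 and 3 (30%) with E2, and none was higher in either. Rps3a1, a protein of the small subunit itself, changed by -0.083 (SE 0.015, adjusted p = 1.15e-05) with BMP2 and -0.090 (SE 0.015, adjusted p = 4.16e-07) with E2. It had 1604, 1603 and 1594 CPM in the vehicle libraries, 1505, 1492 and 1537 CPM in the BMP2 libraries and 1488, 1498 and 1526 CPM in the E2 libraries. The paralogs Rpl22l1 (-0.11 and -0.12) and Rpl36al (-0.094 and -0.13) fell in both, and lost the BMP2 call under the length and GC offset. Fau, which carries a ribosomal protein behind a ubiquitin-like domain, had -0.18 (SE 0.049, adjusted p = 0.062) with BMP2, and was called by DESeq2 (adjusted p = 0.00572). The 75 mitochondrial ribosomal proteins, which belong to a separate ribosome, had medians of -0.045 and -0.023, and none was higher. With BMP2 7 of them (9.33%) were lower, near the 6.85% of all genes, and with E2 6 (8%), against 16.5% of all genes. For these paralogs and mitochondrial proteins, 0 were also higher at an unadjusted p under 0.05 and by DESeq2.

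Translation factors and other mRNAs of the TOP class are regulated by the same pyrimidine sequence. With BMP2, 14 of 22 (63.6%) were lower and 1 was higher, at a median of -0.084. With E2 10 (45.5%) were lower and 1 higher, at a median of -0.045. The shares of all genes were 6.85% lower and 6.84% higher with BMP2, and 16.5% and 15.8% with E2. Eef1a1, the elongation factor that brings tRNA to the ribosome, changed by -0.13 (SE 0.012, adjusted p = 8.24e-18) with BMP2 and -0.050 (SE 0.012, adjusted p = 3.05e-04) with E2. It had 10746, 10774 and 10845 CPM in the vehicle libraries, 9830.3, 9777 and 9957 CPM in the BMP2 libraries and 10467, 10357 and 10433 CPM in the E2 libraries. Gnb2l1, or RACK1, a signalling scaffold bound to the small subunit, had -0.14 and -0.062. Eef1g (-0.14 and -0.13) and Eif3h (-0.17 and -0.12) fell in both. Eif4a2 rose with BMP2 (0.12, SE 0.017, adjusted p = 7.77e-09) and Nap1l1, a histone chaperone, with E2 (0.098, SE 0.018, adjusted p = 3.35e-06).

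Genes whose products assemble ribosomes gave other counts in each comparison. Of 45 ribosome biogenesis genes, 5 (11.1%) were lower and 1 (2.22%) was higher with BMP2, where 6.85% and 6.84% of all genes were. With E2 14 (31.1%) were higher and none lower, against 15.8% and 16.5% of all genes. Directly compared, 17 of the 45 (37.8%) were lower with BMP2 than with E2 and none was higher, against 14% and 14.1% of all genes. DESeq2 gave the same 0 on both of those sides, and so did edgeR at an unadjusted p under 0.05. Ncl (nucleolin) and Dkc1 (the pseudouridine synthase of box H/ACA particles) rose with E2, at 0.098 (SE 0.016, adjusted p = 1.56e-07) and 0.18 (SE 0.031, adjusted p = 3.61e-07). Nhp2, of the same particles, fell with BMP2 (-0.13, SE 0.039, adjusted p = 0.0103) and rose with E2 (0.15, SE 0.038, adjusted p = 0.00101). Nhp2 had 46.3, 48.0 and 44.0 CPM in the vehicle libraries, 41.8, 42.6 and 41.6 CPM in the BMP2 libraries and 52.4, 51.5 and 49.3 CPM in the E2 libraries. Its 3 groups were apart, with E2 highest. Of 15 RNA polymerase I genes none passed the test with BMP2 by edgeR or DESeq2 (3 did at an unadjusted p under 0.05). With E2 4 (26.7%) were higher and 1 (6.67%) lower, among them the large subunit Polr1a (0.11, SE 0.026, adjusted p = 1.89e-04).

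Regulators of ribosome production were mixed in direction. Myc, a transcription factor that activates ribosomal genes, fell with BMP2 (-0.40, SE 0.052, adjusted p = 2.08e-10) and rose with E2 (0.14, SE 0.049, adjusted p = 0.0168), and its direct difference was -0.54 (SE 0.051, adjusted p = 4.82e-18). Myc had 25.9, 25.2 and 27.0 CPM in the vehicle libraries, 19.8, 19.6 and 19.8 CPM in the BMP2 libraries and 28.4, 29.1 and 28.8 CPM in the E2 libraries. Mycn moved in the same directions, at -0.19 (SE 0.051, adjusted p = 0.00368) and 0.21 (SE 0.050, adjusted p = 4.00e-04). Of all 11 MYC family genes, 3 (27.3%) were lower with BMP2, and 6 (54.5%) were lower and 3 (27.3%) higher with E2. Of 22 mTORC1 and LARP1 genes, 1 (Sesn3, 4.55%) was lower with BMP2, and 5 (22.7%) were higher and 4 (18.2%) lower with E2. Among all genes tested, 6.85% were called lower with BMP2, and 15.8% higher and 16.5% lower with E2. The mTORC1 and LARP1 counts were thus near those shares. Larp1 itself and Mtor were not called in either comparison. Eif4ebp1, the repressor of cap-dependent initiation that mTORC1 inactivates, rose with E2 (0.33, SE 0.049, adjusted p = 6.70e-09), while Ddit4 and Sesn2, which restrain mTORC1, fell (-0.27 and -0.43). RNA levels of these genes do not measure the activity of the kinase.

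**Figure D5:**
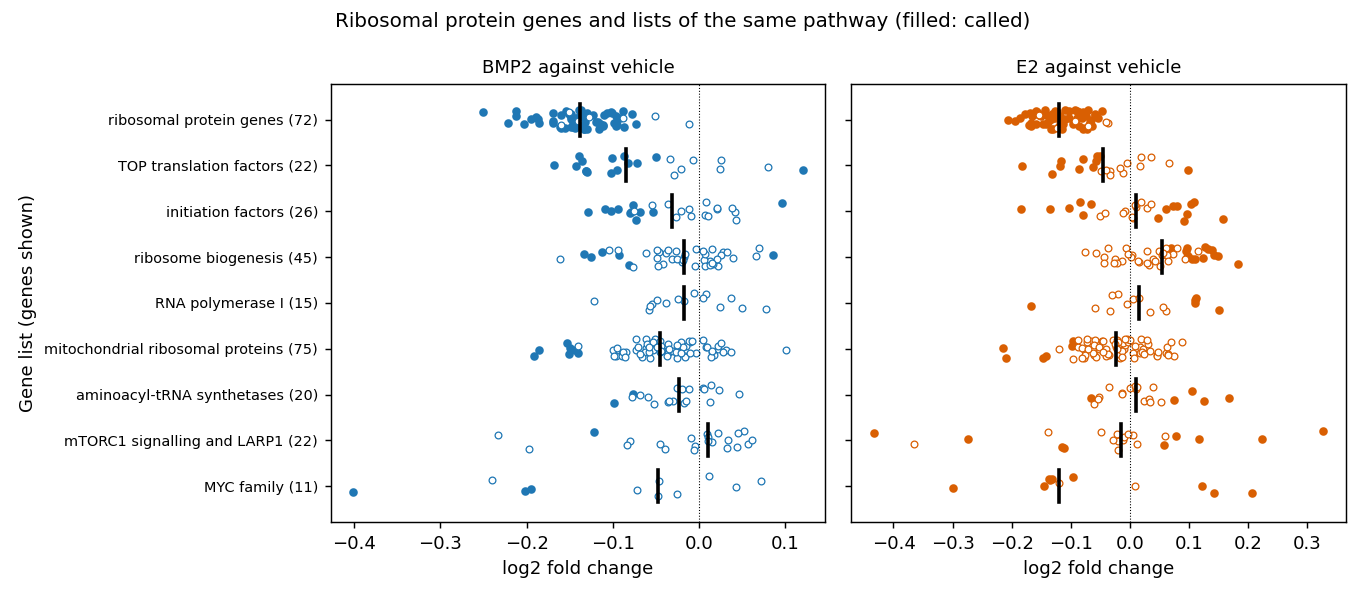
edgeR log2 fold change against vehicle for the genes of each list (rows, with the number shown), as points filled where the test was passed, with the list median as a black bar; the ribosomal protein row holds the 72 members with a mean of at least 6 CPM, and the axes of the panels differ. Of the 9 rows drawn, the ribosomal protein genes have the lowest median with BMP2 (-0.14), and biogenesis genes lie to the right of 0 with E2 (median 0.054).

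Other lists on translation and on ribosome stress were mixed as well, apart from the host genes of small nucleolar RNAs. For all genes, 6.85% were called lower and 6.84% higher with BMP2, and 16.5% lower and 15.8% higher with E2. Initiation factors had 10 lower (38.5%) and 1 higher (3.85%) of 26 with BMP2. With E2 they had 6 lower (23.1%) and 9 higher (34.6%). Aminoacyl-tRNA synthetases had 2 lower (10%) of 20 with BMP2, and 4 higher (20%) and 1 lower (5%) with E2. Of 8 TOP class host genes of small nucleolar RNAs, 1 (12.5%) was lower with BMP2 and 3 (37.5%) with E2. None was called higher in either, and their medians were -0.088 and -0.14. At an unadjusted p under 0.05, 1 was higher with E2 by edgeR. In the list on p53 and ribosome stress (15 genes), 2 were lower (13.3%) and 1 higher (6.67%) with BMP2. With E2 5 were lower (33.3%) and 5 higher (33.3%). Cdkn1a, the cell cycle inhibitor induced by p53, fell with both (-0.29 and -0.29), and Trp53 fell with BMP2 (-0.15). Eda2r, a receptor of the TNF family also known as a p53 target, rose with E2, at 1.39 (SE 0.059, adjusted p = 1.67e-48), and had -0.021 (SE 0.068, adjusted p = 0.894) with BMP2. Eda2r had 12.1, 11.6 and 11.6 CPM in the vehicle libraries, 11.3, 12.1 and 11.3 CPM in the BMP2 libraries and 30.3, 31.8 and 30.6 CPM in the E2 libraries. All 3 E2 libraries of Eda2r lay far above the other 6, which overlapped. Ubb, a polyubiquitin gene, fell with both (-0.14 and -0.18).

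Marker genes of some cell types were lower in treated ovaries, the direction of the ribosomal protein genes, though not in like measure. The shares called among all genes were 6.85% lower and 6.84% higher with BMP2, and 16.5% and 15.8% with E2. All 3 surface epithelium genes (Krt8, Krt18, Upk3b) fell, from a summed 361 to 373 CPM in vehicle to 319 to 326 with BMP2 and 238 to 240.0 with E2. Both genes of dividing cells (Mki67, Top2a) fell, from 602 to 616 CPM to 549 to 559 and 554 to 566. Germ cell genes had 2 of 4 higher and none lower in both comparisons. Pregranulosa genes had 3 of 4 higher with BMP2, and 1 higher and 1 lower with E2. Their part in the lower level of ribosomal protein RNA was not tested. The stroma genes (3) had none called with BMP2 by edgeR or DESeq2 (1 was lower at an unadjusted p under 0.05), and 1 higher and 2 lower with E2. Of 3 endothelial genes 1 was higher with BMP2, and 2 were higher and 1 lower with E2. Macrophage genes (3, summed 35.9 to 42.0 CPM) had 1 lower with E2, and erythroid genes (3 of 4 tested) had 1 higher with BMP2 and 3 with E2. Of the Sertoli genes, Sox9 was lower with E2. The share of entries on no annotated feature was 13.6% to 13.9% in vehicle and BMP2 libraries and 14.5% to 14.8% in E2 libraries, so it moved with E2 but not with BMP2, and its part was not tested.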

How the data were processed

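Polyadenylated RNA libraries (TruSeq v2, per the labels' protocols) of 9 ovary samples, 3 per group, were deposited as raw counts per gene. Per the submitters' processing notes, TopHat2, HTSeq, DESeq2 and the mm10 build were used, with aligner settings, strand handling and annotation not given in the sources used here. The 5 summary rows of each file name no gene, held 38.2% to 39.7% of the entries and entered neither library sizes nor tests.

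The counts were fitted with edgeR 4.0.16 in R 4.3.3: filterByExpr (minimum count 10, total 15), TMM factors, 1 mean per group over all 9 libraries (6 residual degrees of freedom), the robust quasi-likelihood F test and Benjamini-Hochberg adjustment over 16360 genes. Genes with an adjusted p below 0.05 are called changed. SE is the log2 fold change divided by the root of F. CPM uses TMM-scaled library sizes. The biological coefficient of variation was 1.87%. Transcript lengths, GC content and positions come from GENCODE vM21 (GRCm38), which matched 98.4% of symbols and all 76 members.

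Named genes are, per comparison, up to 8 called members with the highest and the lowest fold changes, the 5 members highest in CPM and in CPM per kilobase, 14 members named in advance for their roles, members called against the common direction, and up to 4 called genes of each list by p. Rpl23, Rpl31, Rpl8, Rpl41, the 4 members of wide spread, the 4 of low level, Rps20, Rps15a, Fau, Larp1, Mtor, Nap1l1 and the members whose start is printed were named after their values were seen. Some genes that the rule covers are not reported here. Members and lists were chosen with earlier results of these data known. Alternatives were DESeq2 1.42.0, other scalings and filters, a length and GC offset (splines with 5 degrees of freedom), the replicate number as a block, 2 groups only, a stricter threshold, and each library left out.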

Additional observations from a re-analysis of the deposited data

How the results depend on the processing

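Against vehicle, the counts of members called stayed within 1.5 times under all alternatives run, between 59 and 71 with BMP2 and between 50 and 72 with E2. Of the named genes, Rpl8 turned with E2 under the length and GC offset, to 0.0452 (0.0452 with the block, 0.0431 with the trend fitted without the members), and was then called higher. Rpl23, not called with BMP2, went to 0.0195, 0.0198 and 0.0169 under the same settings and ranged from -0.036 (without vehicle replicate 3) to 0.0036 (without vehicle replicate 1) over the libraries left out. Leaving out 1 library gave 63 to 71 and 63 to 72 calls, and medians of -0.14 to -0.13 and -0.13 to -0.10. The medians moved under the length and GC offset, to -0.0872 with BMP2 and -0.0769 with E2, and with the block added to -0.0872 and -0.0768. With the trend fitted without the members, chosen after seeing the data, they were -0.0925 and -0.0782.

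For BMP2 against E2, where 14 members were called, DESeq2 called 9 and a threshold of 0.01 left 8. The length and GC offset gave 27, as it did with the replicate block and with the trend fitted without the members. Under the offset alone 21 were lower and 6 higher, where 2247 of all 16211 genes were lower and 2547 higher. A fit of only those 2 groups gave 23, with 20 lower and 3 higher, where 4860 of 16193 genes were called. The count ranged from 8 to 22 over the libraries left out, and the median from -0.028 to -0.019. The cause of these shifts was not tested. Over all counts in a file, unassigned reads included, the mean shares were 4.17%, 3.84% and 3.79% for vehicle, BMP2 and E2, lower by construction.

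With the replicate number as a block, 64, 67 and 20 members were called (BMP2, E2 and the direct comparison). Of the members named, the block ended the calls of Rpl11 and Rpl41 in both comparisons with vehicle (adjusted p = 0.116 and 0.110 with BMP2), and called Rpl31 with BMP2 (0.0274) and Rpl23, Rpl8 and Rps23 with E2 (0.0452, 0.0339 and 0.0317). The labels do not say whether the numbers pair the libraries. For this the mean of the group was first subtracted from the log2 CPM of each gene. These deviations correlated at -0.031 to 0.027 between same-numbered libraries of different groups. In 12 of 18 pairings of a library with another group, the best correlation was with the library of its own number. These values do not settle whether the libraries are paired. Of the members' named values, 687 of 720, 603 of 620 and 204 of 240 kept their direction and their side of the threshold. With 3 libraries per group and unassigned multiply aligned reads, changes in members with near-identical copies remain uncertain.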
